A study of Mus musculus with 6 samples.

Results

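The natriuretic peptide family was examined in the ventricles of mouse embryos at E9.5, as 7 genes chosen by name from the 23284 genes of the deposited table. Nppa, Nppb and Nppc encode the peptides, Npr1, Npr2 and Npr3 encode their receptors, and Corin encodes the protease that cuts the Nppa precursor. All 7 are listed in the table, and 5 of them reached 1 FPKM in WT or KD. FPKM is the number of fragments scaled to the length of the transcript and to the size of the library. Npr2 lay below that level, and Nppc was listed at 0 in both groups.

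The 3 WT and 3 KD embryos were tetraploid chimeras, in which the embryo proper comes from the injected ES cells, and the labels give the strain of all samples as C57BL/6. WT embryos came from wild type ES cells. KD embryos had the genotype Tbx5ua -/-, and in their ES cells tandem polyadenylation signals had been placed in both alleles of Tbx5ua, a long non-coding RNA transcribed divergently from Tbx5, to end its transcription early. The edited ES cells were picked as clones and their selection markers were removed with Cre, and the clone behind each KD embryo is not given in the sources used here. The authors deposited 1 FPKM value for each group, with its 3 embryos combined, so the spread between embryos cannot be shown. No SD, interval or test is given below, and every difference compares these 2 combined values. The comparison asked which genes differ when Tbx5ua transcription is cut short. Tbx5ua itself was not analysed here, so it could not serve to check the labels.

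The 3 peptides are hormones made as longer precursors. Nppa (atrial natriuretic peptide, ANP) and Nppb (brain natriuretic peptide, BNP) are made by cardiomyocytes, and in the embryo Nppa marks the working myocardium of the forming chambers, with its strongest expression in the trabeculae. ANP and BNP act on Npr1 and the C-type peptide from Nppc acts on Npr2. Both receptors are guanylyl cyclases that make cGMP. Npr3 lacks the cyclase, removes the peptides from the surroundings and is known in the embryonic heart as an endocardial gene.

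Nppa and Nppb lie next to each other on chromosome 4, and their promoters are shown because these are the members with by far the highest levels and their values lay in opposite directions. The sequences are the 250 bases upstream of the start of each gene, from RefSeq on GRCm38.p6. Nppa covers chr4:148000472-148000721 and Nppb covers chr4:147985650-147985899, both on the plus strand. Capitals mark matches to motifs of factors known to act on these genes, searched on both strands other than TATA. The letters searched were AGGTGT for T-box factors, TNAAGTG for Nkx2-5, NGATAA for GATA factors, CATTCC for the M-CAT element of TEAD factors, TATAAA for TATA, and the CArG box of serum response factor by its name.
Nppa: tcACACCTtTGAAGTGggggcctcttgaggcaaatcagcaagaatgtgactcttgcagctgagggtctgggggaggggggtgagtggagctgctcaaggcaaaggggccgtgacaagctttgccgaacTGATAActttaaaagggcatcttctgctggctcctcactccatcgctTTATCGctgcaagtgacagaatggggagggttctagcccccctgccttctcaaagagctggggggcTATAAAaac
Nppb: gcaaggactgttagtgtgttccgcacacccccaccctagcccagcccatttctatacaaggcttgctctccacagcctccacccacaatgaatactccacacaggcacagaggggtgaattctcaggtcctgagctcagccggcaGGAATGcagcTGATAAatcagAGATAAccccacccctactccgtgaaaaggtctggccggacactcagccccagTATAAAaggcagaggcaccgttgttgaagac

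The Nppa window held 5 matches and the Nppb window 4. In Nppa a T-box match on the minus strand lay 248 to 243 bases upstream of the start, and an Nkx2-5 match followed at 241 to 235 bases. The Nppb window held neither. Each window held a pair of GATA matches, at 122 to 117 and 75 to 70 bases in Nppa and at 95 to 90 and 84 to 79 bases in Nppb. The M-CAT match was found in Nppb, 105 to 100 bases upstream, and no CArG match was found in either window. Of 32536 windows of the same length in the RefSeq promoter set, 11.9% held the T-box letters, 10.0% those for Nkx2-5, 22.4% those for GATA and 12.6% those for M-CAT. The other T-box match among the 7 members was in Npr2. A match describes letters in these windows, which are short, and shows nothing of what bound there. The TATA match lay 9 to 4 bases upstream of the RefSeq start in Nppa and 31 to 26 bases in Nppb. The start used by the deposited table lay 24 bases downstream of the RefSeq start for Nppa and 111 bases upstream of it for Nppb. Windows of the same length from the table's starts would leave out the T-box and Nkx2-5 matches of Nppa and all 4 matches of Nppb. They would also take in bases that were not searched. The contrast between Nppa and Nppb therefore holds for the RefSeq starts and was not examined from the table's starts.

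**Figure D1:**
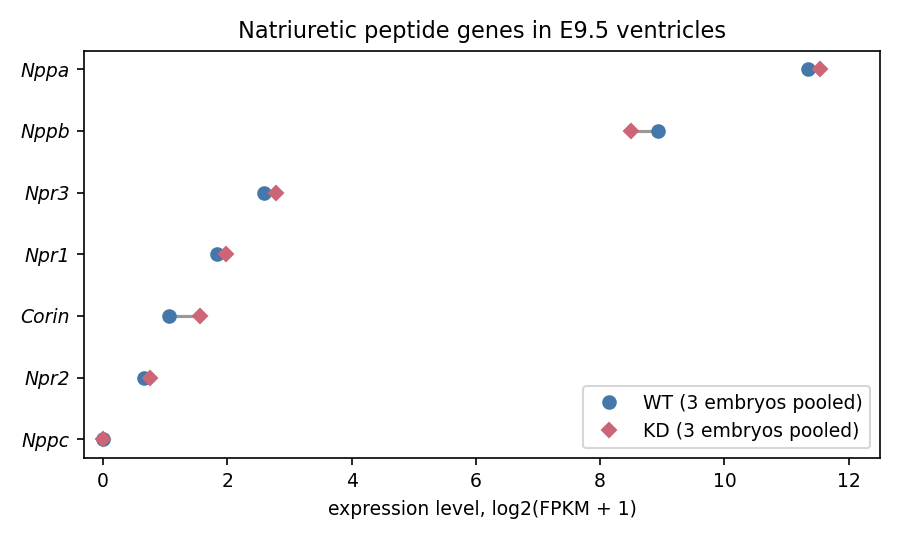
Expression level of each member in WT and KD ventricles on the log2(FPKM + 1) scale, with 1 point for each group over its 3 embryos together and no error bar because the values combine the embryos of a group. Nppa and Nppb sit far above the receptors and Corin in both groups, and Nppb is the one member with a lower value in KD.

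Levels can be compared between genes because FPKM is scaled to transcript length. The order was the same in both groups, with Nppa first, then Nppb, Npr3, Npr1, Corin and Npr2. Nppc, listed at 0, was not placed in this order. Nppa ranked 46 among all genes of the table in WT and 38 in KD, and Nppb ranked 311 and 404. The step from Nppb to Npr3 was the widest, 96.2-fold in WT and 61.2-fold in KD. Npr3 stood 1.97-fold above Npr1 in WT and 2.0-fold in KD. Npr1 stood 2.34-fold above Corin in WT and 1.5-fold in KD, so this pair lay closest in KD. Whether neighbours in the order differ beyond the spread between embryos cannot be told from combined values. In total the 3 peptide genes had 3073 FPKM in WT against 3327 FPKM in KD, and the 3 receptors 8.19 and 9.49 FPKM.

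Nppa had 2588 FPKM in WT against 2967 FPKM in KD. Its difference, KD minus WT on the log2(FPKM + 1) scale used for all differences below, was 0.20, so KD held 114.7% of the WT level. Among the 62 genes of like level, with a mean within 0.5 on that scale, 25.8% lay at least as far from their median, which was 0.09. The gene (ENSMUSG00000041616) is listed on chromosome 4 from 148000746 to 148002067 on mm10, and its longest coding transcript in GENCODE M21 has 3 exons. GENCODE places the antisense gene Gm13054 across it, and Smart-Seq2 libraries do not mark strand, so reads from the overlap cannot be assigned to either. The same holds for Npr1 with Gm16048, Npr2 with Gm12473 and Corin with Gm20647. The Npr3 gene of GENCODE overlaps Gm5144 on the other strand, beyond the end of the locus listed in the table.

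Nppb had 485 FPKM in WT against 360 FPKM in KD. The difference was -0.43, and KD held 74.1% of the WT level. Of 191 genes of like level 6, or 3.14%, Nppb included, lay at least as far from their median, and the central 95% of these genes ran from -0.28 to 0.36. Nppb therefore lay outside the range of most genes expressed at its level, although it did not reach 1.5-fold. These percentages place a gene among others in the same combined values and are no test between the groups. Nppb (ENSMUSG00000029019) has 3 exons, on chromosome 4 from 147985789 to 147987205, 13.5 kb from Nppa.

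The balance between both peptides differed between the groups. Nppa was 5.33-fold above Nppb in WT and 8.25-fold in KD, a ratio of ratios of 1.55 in which 1 scaling factor per group cancels. How the single libraries were weighted within a group could not be examined. Nppb made up 15.8% of the summed FPKM of the peptide genes in WT and 10.8% in KD. Nppc, the third peptide gene, was listed at 0 in both groups. The gene (ENSMUSG00000026241) lies on chromosome 1 from 86666293 to 86670573. An entry of 0 in this table can be a failed estimate, since 2 genes listed with too many reads have a value of 0. Whether this holds for Nppc was not examined. Of 79 ribosomal protein genes listed, 1 had 0 in WT and KD too, and the reason was not examined either.

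**Figure D2:**
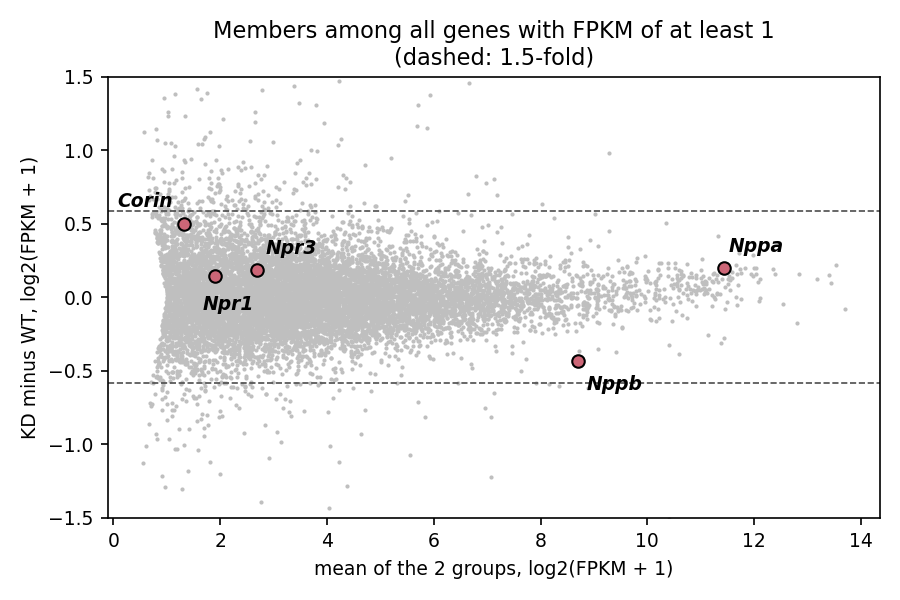
Difference between KD and WT against the mean level of the 2 groups, both on the log2(FPKM + 1) scale, for the 11606 genes that reached 1 FPKM in WT or KD (grey) and the 5 members that passed this filter (red). Npr1, Npr3 and Nppa lie within the cloud of genes at their level while Nppb lies at its lower edge, and 83 genes beyond 1.5 in either direction fall outside the plotted range.

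The receptors were expressed at low levels and all had slightly higher values in KD. Npr3 (ENSMUSG00000022206, chromosome 15, 11839897 to 11905674) had 5.05 FPKM in WT against 5.87 FPKM in KD, a difference of 0.18. The guanylyl cyclase Npr1 (ENSMUSG00000027931, chromosome 3, 90450592 to 90465866) had 2.56 FPKM in WT against 2.93 FPKM in KD, a difference of 0.14. Of the genes of like level 41.8% lay at least as far out as Npr3 and 59.1% as far out as Npr1, so neither stood apart from other genes. Npr2, the receptor of the C-type peptide, had 0.580 FPKM in WT against 0.690 FPKM in KD. The gene (ENSMUSG00000028469) lies on chromosome 4 from 43631935 to 43651240. Npr3 stood 8.70-fold above Npr2 in WT and 8.51-fold in KD, with Npr2 below 1 FPKM in both groups, so the precision of this ratio is unknown. Npr3 made up 61.7% of the summed receptor level in WT and 61.9% in KD.

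Corin is a transmembrane serine protease of cardiomyocytes that converts the Nppa precursor to the active hormone. It had 1.09 FPKM in WT against 1.96 FPKM in KD. The difference was 0.50, and 12.1% of 2124 genes of like level lay at least as far from their median. As a plain ratio of the FPKM values KD was 1.79-fold above WT, since the pseudocount of 1 shrinks differences of low genes, so whether Corin passed 1.5-fold depended on this choice. FPKM times the length in kilobases of the longest coding transcript in GENCODE M21 (4862 bases for Corin), which scales with the fragments counted, was 5.32 in WT and 9.52 in KD. For Npr2 this product was 2.12 and 2.53, against 2239 and 2567 for Nppa, so far fewer fragments stand behind the low members. Corin (ENSMUSG00000005220) has 22 exons and spans chromosome 5 from 72300025 to 72504540.

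With a difference of at least 1.5-fold (0.58 on the log2 scale) as the threshold, 0 of the 5 members passed. Of all 11606 genes 3.66% passed, 2.2% higher and 1.46% lower in KD. The median difference of the 5 members was 0.18, and that of all genes was 0.00. Of the 5 members, 4 had a higher and 1 a lower value in KD, where 50.9% of all genes had a higher value. With so few members this count is a description, and the members were not tested as a group.

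**Figure D3:**
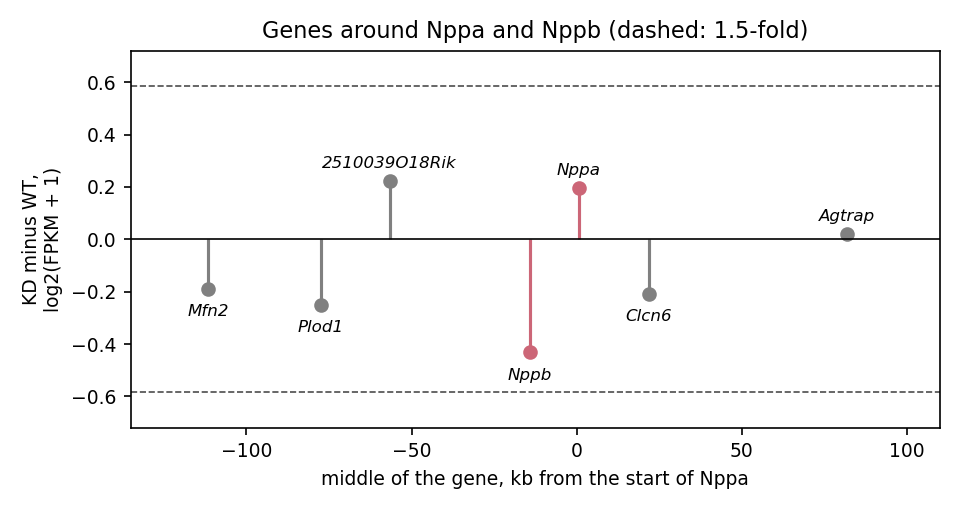
Difference between KD and WT on the log2(FPKM + 1) scale for genes within 100 kb of Nppa or Nppb that reached 1 FPKM in WT or KD and are described in the text, by the distance of the middle of each gene from the start of Nppa. The 5 neighbours plotted lie between -0.25 and 0.22, and Nppb has the lowest value of the genes plotted.

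The region around Nppa and Nppb was then examined. The 5 neighbours described here, all within 100 kb, differed by -0.25 to 0.22, and 0 of them passed 1.5-fold. Clcn6, a chloride transporter gene 4.42 kb from Nppa, had 2.77 FPKM in WT against 2.27 FPKM in KD. On the side of Nppb, Plod1, which encodes a collagen-modifying lysyl hydroxylase, had 14.1 and 11.6 FPKM, and Mfn2, a gene of mitochondrial fusion, had 40.4 and 35.3 FPKM. The uncharacterised gene 2510039O18Rik had 3.73 and 4.52 FPKM. Agtrap, which encodes an angiotensin receptor-associated protein, had 11.0 and 11.2 FPKM. None of these 5 came near the levels of Nppa and Nppb. Around all 7 members, 26 of the neighbouring genes analysed here passed the filter and 0 of them passed 1.5-fold. Of all genes 3.66% passed, so with so few neighbours these counts of 0 are a description.

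Genes that make, break down or relay the peptides, or act on their genes, were taken from lists by role. The lists were chosen with earlier results of these data known, so their shares past 1.5-fold are descriptions. The table holds 67 such genes beside the members, and 50 reached 1 FPKM in WT or KD. Of these, 4 passed 1.5-fold, all with higher values in KD, which is 8% against 3.66% of all genes. Their median difference was 0.09, with 34 higher and 16 lower. The 4 genes were Pln and Rgs2 of the cGMP kinase list and Tbx18 and Hey1 of the transcription factor list.

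Among genes of peptide processing and breakdown 0 of 7 passed. Furin, the protease that cuts the Nppb precursor, had 9.54 FPKM in WT against 8.26 FPKM in KD. Pcsk6, known to activate Corin, had 1.65 and 2.61 FPKM, a difference of 0.45. The related convertase Pcsk5 had 2.65 and 4.39 FPKM, a difference of 0.56 that lay just under the threshold. As plain ratios of FPKM, Pcsk5 (1.66-fold), Dpp4 (1.62-fold) and Pcsk6 (1.58-fold) lay past 1.5-fold, so this count depended on the pseudocount. The other genes of the list that reached 1 FPKM stayed under it. Without a pseudocount 7.72% of all genes passed. Mme (neprilysin), which degrades the peptides, had 3.32 and 3.63 FPKM, and Ece1, the highest of the list, had 38.6 and 40.8 FPKM. Ostn, whose product binds Npr3, was listed at 0 in both groups.

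In the cGMP branch, the main subunits of the soluble, nitric oxide-sensing guanylyl cyclase stood above Npr1 and Npr2, while a further subunit, Gucy1a2, had 0.174 and 0.289 FPKM and stood below both. Gucy1b1 (listed under its older symbol Gucy1b3) had 12.7 FPKM in WT against 11.2 FPKM in KD, and Gucy1a1 (listed as Gucy1a3) had 8.95 and 11.8 FPKM. The kinase Prkg1 had 5.86 and 4.46 FPKM, a difference of -0.33, the lowest of the 50 pathway genes, and shares its locus with another entry of the table. Pln, the phospholamban gene and a known substrate of cGMP and cAMP kinases, had 104 and 183 FPKM, a difference of 0.81, and shares its locus as well. Rgs2, a brake on G protein signalling that the cGMP kinase activates, had 3.38 and 5.91 FPKM, a difference of 0.66. In the list of cGMP phosphodiesterase genes 0 of 6 passed. The highest, Pde6d with 76.8 and 81.4 FPKM, encodes a prenyl-binding subunit without catalytic activity. Pde2a, which is stimulated by cGMP, came closest with 2.03 and 3.49 FPKM, a difference of 0.57, and it also shares its locus in the table. As a plain ratio of FPKM Pde2a was 1.72-fold higher in KD, where 7.72% of all genes passed 1.5-fold without a pseudocount. Pde5a was below 1 FPKM in both groups. Of the G protein and cyclase genes coupled to Npr3, 0 of 6 passed, and Gnai2, the highest by mean level, had 47.3 and 50.9 FPKM.

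**Figure D4:**
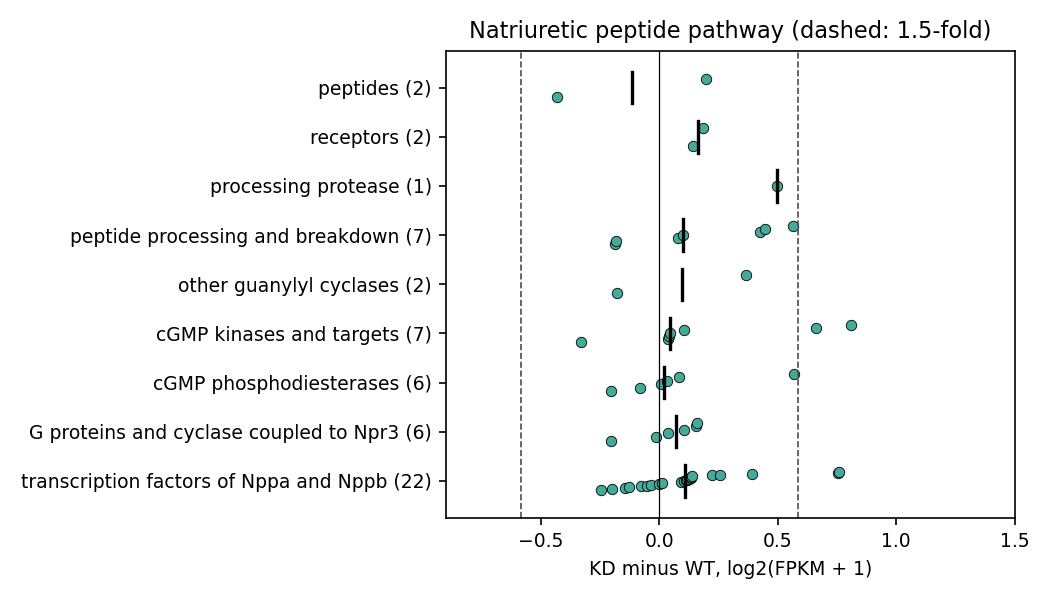
Difference between KD and WT on the log2(FPKM + 1) scale for each pathway gene that reached 1 FPKM in WT or KD, by role, with the number of genes in brackets and a black bar at the median. Pln, Rgs2, Tbx18 and Hey1 lie to the right of the upper 1.5-fold line, and no gene lies to the left of the lower one.

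Of 22 transcription factors known to act on Nppa and Nppb, 2 passed 1.5-fold, both with higher values in KD, which is 9.09% against 3.66% of all genes. The median difference of the 22 was 0.11. Tbx5, which activates Nppa, had 17.2 FPKM in WT against 15.7 FPKM in KD, a difference of -0.13. Its partner Nkx2-5, the highest of the list, had 224 and 247 FPKM, and Gata4 had 45.1 and 52.9 FPKM. The T-box repressors Tbx2 and Tbx3 had 1.11 and 1.06 FPKM and 3.53 and 3.11 FPKM. Tbx18 had 3.46 and 6.56 FPKM, a difference of 0.76, and is also an epicardial marker. Hey1, a Notch target that represses chamber genes, had 13.3 and 23.1 FPKM, a difference of 0.75. As a plain ratio of FPKM Nfatc4, with 0.676 and 1.20 FPKM, also lay past 1.5-fold (1.77-fold). Without a pseudocount 7.72% of all genes passed. Nfatc4 reached 1 FPKM in KD alone, so the filter kept it only through the group where it was higher.

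Marker genes of the cells a ventricle sample can hold were listed beside the members, since fewer cells of a type and less RNA in each cell cannot be told apart in whole tissue. All 10 cardiomyocyte markers were present, with a summed level of 29483 FPKM in WT against 28895 FPKM in KD, and 0 of them passed 1.5-fold. The highest, the atrial-type myosin light chain gene Myl7, had 13643 and 12907 FPKM. Nppa was higher and Nppb lower in KD beside this nearly level sum (0.98-fold). Gene by gene, 8 of these 10 markers were lower and 2 higher in KD. Their differences ran from -0.24 to 0.16, with a median of -0.06. Of the 7 trabecular markers 1 passed, Gja5 with 7.02 and 12.1 FPKM, where 3.66% of all genes passed, and their sum was 972 FPKM in WT against 1036 FPKM in KD. Smpx, with 618 and 612 FPKM, and Cited1, with 322 and 384 FPKM, made up most of this sum. By gene, 5 of the 7 had a higher value in KD with a median difference of 0.26, among them Irx3 with 5.51 and 8.16 FPKM. Bmp10 had 13.2 and 11.7 FPKM. Of the 6 compact myocardium markers 0 passed, and their sum was 664 FPKM in WT against 652 FPKM in KD. The 10 endothelial and endocardial markers, the cell type in which Npr3 is known, summed to 287 FPKM in WT against 351 FPKM in KD, 1.23-fold, with 0 of 10 past the threshold. This sum turned on Plvap, with 129 and 179 FPKM, and Emcn, with 43.1 and 57.4 FPKM. By gene the median difference was 0.07, with 7 higher and 3 lower in KD, and the lower ones were Nfatc1 (16.4 and 13.7 FPKM), Tek (17.8 and 15.5 FPKM) and Cdh5 (10.5 and 9.74 FPKM). Npr3 itself was 1.16-fold higher in KD.

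The markers of other cell types were compared in the same way, and the epicardial list had the largest median difference of the marker lists, 0.90. Of the 6 epicardial markers that reached 1 FPKM, 4 passed 1.5-fold, all higher in KD, where 2.2% of all genes passed in that direction and 3.66% in either, and the list of 7 summed to 47.3 FPKM in WT against 96.8 FPKM in KD. They were Tcf21 with 11.9 and 25.5 FPKM, Upk1b with 9.17 and 22.1 FPKM, Upk3b with 7.80 and 20.7 FPKM, and Tbx18. As a plain ratio of FPKM, Aldh1a2 of this list also lay past 1.5-fold (1.99-fold). With 0.872 and 1.74 FPKM it was among the 6 through KD alone. Of 6 cushion mesenchyme markers 2 passed, where 3.66% of all genes passed. The 2 were Sox9 with 8.95 and 16.0 FPKM and Pdgfra with 0.969 and 2.78 FPKM. Pdgfra reached 1 FPKM in KD alone, so the filter kept it only through the group where it was higher. The list summed to 17.9 and 29.9 FPKM, and 5 of the 6 were higher in KD with a median difference of 0.51. Twist1 (1.63-fold) and Snai2 (1.74-fold) also lay past 1.5-fold as plain ratios of FPKM. Without a pseudocount 7.72% of all genes passed, which is the share beside every plain ratio of these lists. The atrial list summed to 23.7 and 27.7 FPKM, mostly from Angpt1 with 14.0 and 14.4 FPKM. By gene, all 5 atrial markers that reached 1 FPKM were higher in KD with a median difference of 0.42. Nr2f1 (0.552 and 1.07 FPKM) and Vsnl1 (0.555 and 1.14 FPKM) reached 1 FPKM in KD alone. The filter itself fixed the direction of genes kept this way, and the median is the value of Nr2f1. Nr2f2 (2.01 and 4.15 FPKM, at a shared locus) passed the threshold, and the atrial gene Sln was listed at 0. Nr2f1 (1.94-fold, at a shared locus) and Vsnl1 (2.05-fold) also lay past 1.5-fold as plain ratios of FPKM. Among smooth muscle and outflow genes Tagln, which shares its locus in the table, had 400.3 FPKM in WT against 263 FPKM in KD. Its difference of -0.60 passed 1.5-fold, where 1.46% of all genes passed with lower values in KD. The 4 genes of this list that reached 1 FPKM were all lower in KD, with a median difference of -0.40, and 1 of them passed. As a plain ratio of FPKM, Fgf8 also lay past 1.5-fold, with KD at 0.58 of WT. Acta2, the highest of that list, had 3045 and 2512 FPKM. The erythroid list held 11441 and 11522 FPKM, with 0 of 6 genes past the threshold and Hba-x highest at 4401 and 4318 FPKM. The hepatic and yolk sac list summed to 0.607 and 1.37 FPKM, and Alb and Fgb were listed at 0. The neural list summed to 0.243 and 0.0810 FPKM, and Sox2 and Neurod1 were listed at 0. The part of these shifts in the values of Corin, Nppb and the other members was not tested.

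**Figure D5:**
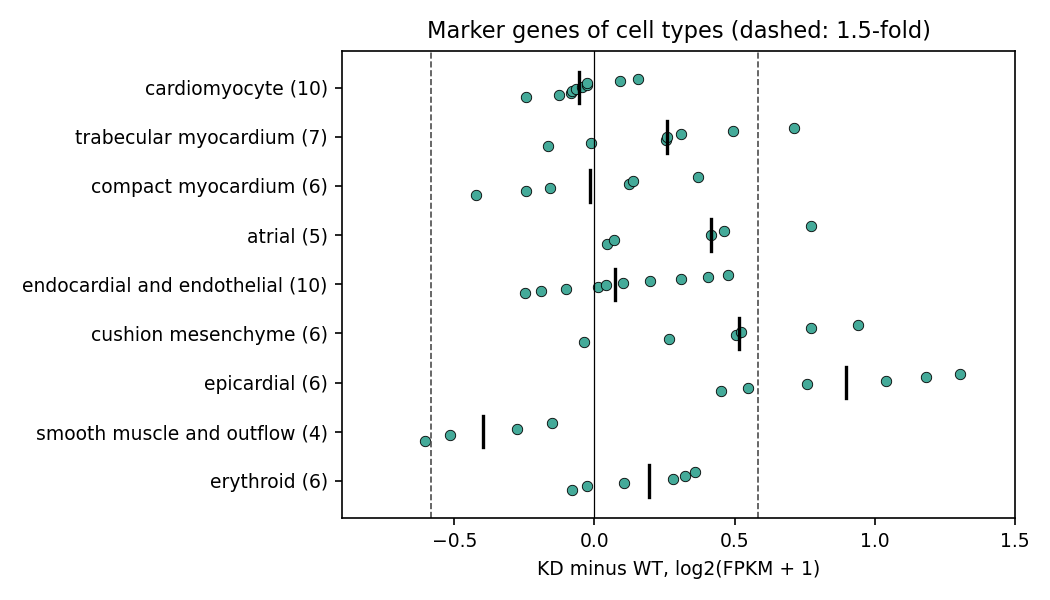
Difference between KD and WT on the log2(FPKM + 1) scale for marker genes that reached 1 FPKM in WT or KD, with the number of genes in brackets and a black bar at the median. Cardiomyocyte markers lie close to 0 while epicardial markers extend to 1.31.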

How the data were processed

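RNA-seq libraries were made from E9.5 ventricles of 3 WT and 3 KD embryos with the Smart-Seq2 protocol (10 ng of RNA, 12 cycles of preamplification and 9 of enrichment PCR) and sequenced as single-end reads. The authors deposited 1 Cuffdiff table with 1 FPKM value per group, in which the KD group is named KO. The submitters' processing notes name TopHat, Bowtie2, Cuffdiff and mm10, and their versions are not given in the sources used here. No column of single embryos was present (0 left unused), and no counts, so the depth is unknown and no interval can be given. The table also holds the authors' fold changes and p-values, which were not used. 2 genes listed with too many reads have a value of 0.

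The members, gene lists and motifs were chosen with earlier results of these data known. Differences are log2(FPKM + 1) of KD less that of WT. Genes that reached 1 FPKM in WT or KD were kept, and an absolute difference of at least 0.58 (1.5-fold) was the threshold. Genes of like level have a mean within 0.5 of that of the member. Starts were raised by 1 to count from 1. Gucy1a1 and Gucy1b1 were found through RefSeq synonyms. Named genes were the members, list genes past 1.5-fold, the highest gene of a list, and neighbours within 100 kb of Nppa and Nppb, other than 1 that is not reported here. Other genes of the lists were named after their values were seen, for their role or for where their value lay. With 2 values per gene no likeness of patterns was computed. Alternatives were pseudocounts of 0.1 and 0, FPKM scaled to equal sums, subtraction of the median, 2-fold, other filters and bands, and the members less each gene. Python 3.11.15, NumPy 2.4.6, pandas 2.3.3 and Matplotlib 3.10.9 were used.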

Additional observations from a re-analysis of the deposited data

How the results depend on the processing

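No paired analysis was possible because each group is 1 combined value, without single embryos, and for the same reason the fits without each replicate were not run. Of 24 alternative values of the members' differences, 20 moved by less than 0.1 and stayed on their side of 1.5-fold, and none changed direction. With a pseudocount of 0.1 or none, Corin passed 1.5-fold with a difference of 0.79 or 0.84, and Npr2 had 0.22 or 0.25. These shifts follow from the pseudocount, which shrinks differences of low genes. The number of members past 1.5-fold was then 1 in place of 0, where 7.58% and 7.72% of all genes passed. It was also 1 with these pseudocounts and no filter, an alternative chosen after seeing the data in which 12.1% and 21.1% of all genes passed, and 0 in the others. The count of pathway genes, 4, was 9 with a pseudocount of 0.1 and 9 with none, 11 of 67 and 13 of 58 when the filter was also dropped, and 0 at 2-fold, where 1.22% of all genes passed. The marker lists were not counted again under these alternatives, and plain ratios past 1.5-fold are given with their lists above. The median difference of the members stayed between 0.14 and 0.20. Depth is unknown, which leaves the precision of the low levels of Npr2 and Corin unknown. Whether the entry of 0 for Nppc is a failed estimate was not examined.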

Other observations

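Nppa and Nppb were set beside other adjacent genes of the table. Of 3824 pairs of adjacent genes up to 20 kb apart, each reaching 1 FPKM in WT or KD and with a locus of its own, 4.94% differed in their KD minus WT values by at least as much as the 0.63 between Nppa and Nppb (log2 scale). The median gap was 0.19. In 48.0% of these pairs the values lay in opposite directions, so the opposite direction by itself is common. Of the 55 pairs in which each gene had a mean FPKM of at least 100, 1 pair differed by at least 0.63, and that pair was Nppa and Nppb. This description was made after their values had been seen, and it rests on values with the embryos combined.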
